A study of Mus musculus with 7 samples.

Results

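The S100 genes of mouse epidermis were taken as every row of the deposited table whose symbol begins with S100 followed by a letter. This gave 9 genes of 7091: S100a1, S100a13, S100a14, S100a16, S100a6, S100a7a, S100a8, S100a9 and S100a11. The mouse annotation used here (GENCODE M21) holds 19 names that fit the rule, and the other 10 were not analysed here. All 9 encode S100 proteins, and each had the same identifier, start and end in that annotation.

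Epidermis had been separated from resting (telogen) skin of 7 mice. Control mice had the genotype ABCA12-c/c, which is a conditional allele of the lipid transporter gene Abca12 without any recombinase. Mutant mice, called KA, had the genotype K14-CreERT;ABCA12-cKO, in which the keratin 14 promoter of basal keratinocytes drives a recombinase that acts once tamoxifen is given. Both groups were 8 weeks old when tamoxifen was injected on 3 successive days, 1 mg for every 40 g of mouse, and both were sampled 2 weeks later, so the recombinase itself is present in KA mice alone and its presence cannot be told apart from the deletion. There were 3 control libraries (control 1 and control 3 female, control 2 male) and 4 KA libraries (KA 1 and KA 2 male, KA 3 and KA 4 female), 1 mouse each. Abca12 was not analysed here.

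S100 proteins are small calcium-binding proteins that fold through EF-hand motifs and mostly work as dimers. S100A8 and S100A9 pair with each other as calprotectin, which sequesters zinc and manganese from microbes and, once outside the cell, acts as an alarmin on the receptors TLR4 and RAGE. Neutrophils and monocytes carry large amounts of calprotectin, and keratinocytes make it when the epidermis is wounded or inflamed. In mice as in humans most S100 genes lie in a cluster beside the epidermal differentiation genes.

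The 9 genes all lie on chromosome 3 of GRCm38. From the start of S100a1 to the end of S100a9 the cluster spans 184.688 kb, and S100a11 lies 2824.766 kb further on, beyond the cornified envelope genes. S100a8 (ENSMUSG00000056054, 90668978 to 90670035, plus strand) and S100a9 (ENSMUSG00000056071, 90692632 to 90695721, minus strand) point towards each other with 22596 bases between their ends. S100a7a (ENSMUSG00000063767, 90654017 to 90658669, plus strand) ends 10308 bases before S100a8. S100a1 (ENSMUSG00000044080, 90511034 to 90514392, minus strand) and S100a13 (ENSMUSG00000042312, 90514435 to 90524581, plus strand) point away from each other with 42 bases between them. No strand setting is stated for the counting, so reads from the stretch where S100a1 and S100a13 meet cannot be assigned to a strand.

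The sequences before the start sites of S100a8 and S100a9 are shown because these 2 genes moved together, and that of S100a11 is shown beside them as an S100 gene of the same epidermis with a small change. Each is the 250 bases before the start of the RefSeq transcript (GRCm38.p6), 5′ to 3′ on the strand of the gene: chr3:90668821-90669070 (plus) for S100a8, chr3:90695722-90695971 (minus) for S100a9 and chr3:93520246-93520495 (plus) for S100a11. Capitals mark matches, on either strand, to AP-1 (TGANTCA), C/EBP (TTGCNNAA), STAT (TTCNNNGAA) or the TATA box (TATAAA), the last of which was added after the sequences had been read.
S100a8: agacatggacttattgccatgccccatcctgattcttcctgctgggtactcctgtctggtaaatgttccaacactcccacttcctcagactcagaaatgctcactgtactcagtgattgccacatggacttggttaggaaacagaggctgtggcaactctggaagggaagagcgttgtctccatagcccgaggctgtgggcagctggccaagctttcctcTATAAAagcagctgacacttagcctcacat
S100a9: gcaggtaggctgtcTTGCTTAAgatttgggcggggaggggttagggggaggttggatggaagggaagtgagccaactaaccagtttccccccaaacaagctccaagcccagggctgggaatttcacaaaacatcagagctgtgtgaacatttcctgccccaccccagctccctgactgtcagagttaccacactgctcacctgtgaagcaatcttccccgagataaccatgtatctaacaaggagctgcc
S100a11: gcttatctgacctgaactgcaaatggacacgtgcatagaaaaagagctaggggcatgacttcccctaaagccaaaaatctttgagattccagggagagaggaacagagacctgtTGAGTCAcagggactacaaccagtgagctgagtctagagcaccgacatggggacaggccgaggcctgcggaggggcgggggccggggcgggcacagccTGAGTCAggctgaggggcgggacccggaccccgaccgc
The S100a8 stretch held a TATAAA at positions -30 to -25 from the start site and no match to the other 3 patterns. The S100a9 stretch held a C/EBP match at -236 to -229, and S100a11 held AP-1 matches at -136 to -130 and at -38 to -32. RefSeq windows of 300 bases, which add the first 50 transcribed bases, were found for 8 of the 9 genes, in 9 windows. S100a14 had none. In those 9 windows AP-1 matched in 2, C/EBP in 1, STAT in 1 and the TATA box pattern in 2. The TATAAA of S100a9 lay at positions 1 to 6, within the transcribed bases and not before the start site. Of all 32851 windows in the same collection, 7.81% held the AP-1 pattern, 10.8% the C/EBP pattern, 8.3% the STAT pattern and 13.6% the TATA box. A match describes letters only. The start of S100a8 in the deposited table, 90668978, lies before the RefSeq start, so the printed stretch of S100a8 overlaps the deposited gene model.

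S100a8 and S100a9 were nearly silent in control epidermis and among the most abundant listed messages in KA epidermis. S100a8 gave 9.47, 6.19 and 8.02 normalised reads in controls 1, 2 and 3, and 25227, 10456, 5176 and 27426 in KA 1, 2, 3 and 4 (normalised reads are counts divided by the size factor that the authors computed for each library). S100a9 gave 2.84, 10.3 and 8.82 normalised reads in the controls, and 39469, 12028, 5565 and 28896 in the KA libraries. In both genes the lowest KA library, KA 3, lay far above the highest control, and the groups did not overlap. On the log2 scale KA exceeded control by 10.91 ± 0.85 for S100a8 (SE; adjusted p = 2.5e-05 by the quasi-likelihood test of edgeR) and by 11.35 ± 0.98 for S100a9 (SE; adjusted p = 3.59e-05, same test). In bulk tissue, more cells of a type and more RNA per cell cannot be told apart. The control values rest on 3 to 11 reads per library, so the size of the fold is much less certain than its direction.

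Every S100 gene in the table passed the test, 8 higher and 1 lower in KA, and in all 9 the KA and control libraries did not overlap. These counts are to be read against the table, which holds only genes that the authors had already called: of 6761 listed genes tested here, 91.5% passed, 44% as higher and 47.5% as lower, and 93.5% had groups that did not overlap (49% with all KA libraries above the controls and 44.5% with all below). Before that selection, the authors' deposited table of 7091 genes corresponds to 36.5% of the 19407 genes that their adjustment ran over. A call for a listed gene is therefore conditional on a selection made from these same libraries, and the sizes below carry more information than the calls.

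**Figure D1:**
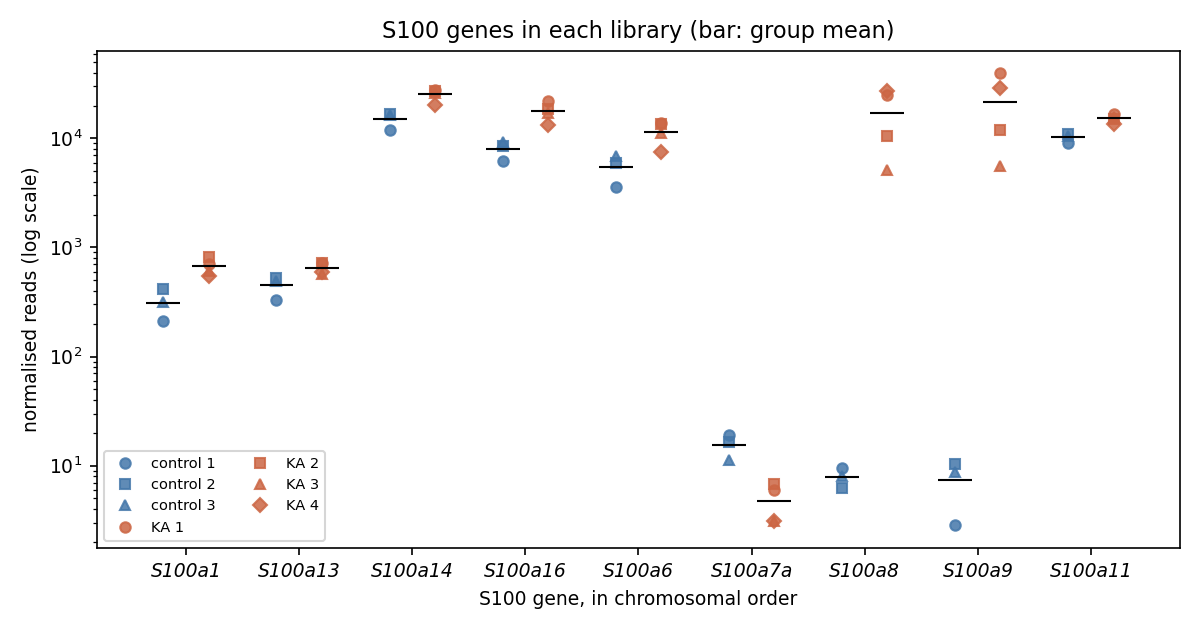
Normalised reads (log axis) of the 9 S100 genes in each of the 7 libraries, in chromosomal order; points are libraries, bars are group means, and symbols distinguish replicates. S100a8 and S100a9 are below 11 in every control and at least 5176 in every KA library, while the abundant genes S100a14, S100a16, S100a6 and S100a11 have KA means 1.49 to 2.23 times the control means.

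The genes with a high level in control epidermis rose by much less. S100a16, a member found in many epithelia, gave 6251, 8452 and 9207 normalised reads in the controls and 21962, 18626, 16999 and 13388 in KA, a log2 difference of 1.02 ± 0.18 (SE; adjusted p = 0.000606 by the quasi-likelihood test of edgeR). S100a6, also called calcyclin and known from proliferating cells, gave 3588, 5972 and 6947 in the controls and 13849, 13584, 11162 and 7557 in KA, a log2 difference of 0.93 ± 0.24 (SE; adjusted p = 0.00535 by the quasi-likelihood test of edgeR). The log2 differences of S100a16 and S100a6 lay within 1 SE of each other. For S100a6 the highest control and the lowest KA library, KA 4, were close to each other. S100a14, an epithelial S100 protein, gave 12023, 16579 and 16416 in the controls and 27861, 27172, 26149 and 20416 in KA, a log2 difference of 0.62 ± 0.16 (SE; adjusted p = 0.00391 by the quasi-likelihood test of edgeR). S100a11, whose protein is one of those cross-linked into the cornified envelope, gave 9000, 10981 and 10624 in the controls and 16846, 15079, 15609 and 13405 in KA, a log2 difference of 0.44 ± 0.12 (SE; adjusted p = 0.00675 by the quasi-likelihood test of edgeR). These 4 genes rose in every KA library, by amounts that were small beside those of S100a8 and S100a9.

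The head-to-head neighbours S100a1 and S100a13 had lower levels. S100a1, best known from heart and skeletal muscle, gave 210.2, 414 and 314 normalised reads in the controls and 706, 825, 612 and 552 in KA, a log2 difference of 0.97 ± 0.22 (SE; adjusted p = 0.00238 by the quasi-likelihood test of edgeR). S100a13, which takes part in the release of proteins that lack a signal peptide, gave 329, 519.6 and 497 in the controls and 722, 714, 574 and 599 in KA, a log2 difference of 0.41 ± 0.17 (SE; adjusted p = 0.0381 by the quasi-likelihood test of edgeR). This was the weakest of the S100 calls. It was lost in 8 of 19 alternative analyses, among them leaving out control 1 (0.27, adjusted p = 0.103), KA 1 (0.38, adjusted p = 0.064) or KA 2 (0.37, adjusted p = 0.0873), with adjusted p from 0.0135 to 0.124 over all 19.

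S100a7a was the only S100 gene that fell. It is the mouse relative of psoriasin, an antimicrobial S100 protein of inflamed human skin. It gave 18.9, 16.5 and 11.2 normalised reads in the controls and 5.94, 6.76, 3.13 and 3.11 in KA, a log2 difference of -1.83 ± 0.46 (SE; adjusted p = 0.00412 by the quasi-likelihood test of edgeR). With 14 to 20 counts per control and 3 to 6 per KA library, this is the least abundant S100 gene in KA and the estimate rests on few reads.

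**Figure D2:**
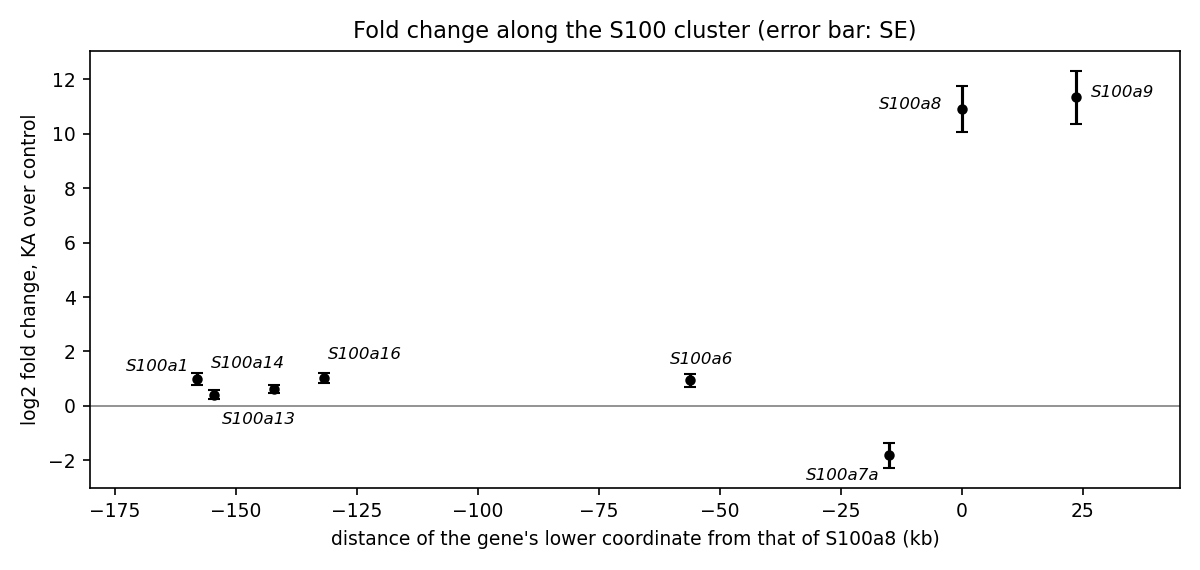
Log2 fold change (KA over control, vertical axis, error bar SE) of the 8 genes of the cluster, each against the distance of its lower coordinate from that of S100a8 in kb. S100a8 and S100a9 stand at 10.91 and 11.35, the neighbour S100a7a at -1.83, and the 5 genes further away between 0.41 and 1.02; S100a11, 2824.766 kb beyond S100a9, is not drawn.

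The division of the family's reads differed between the groups, with no overlap. In control libraries S100a8 and S100a9 together made up 0.0382% to 0.0392% of all reads in the 9 genes, and in KA libraries 13.1% to 50.2%. The other 7 genes together gave 31420 to 44015 normalised reads in controls and 55921 to 81952 in KA. Per kb of gene model, the mean level in KA was 41168 ± 29704 normalised reads per kb (SD, n = 4) for S100a9, 29814 ± 2792 (SD, n = 4) for S100a11, 24598 ± 15763 (SD, n = 4) for S100a8 and 14707 ± 1966 (SD, n = 4) for S100a14. Each overlapped its neighbour in this order within the spread. On the same scale S100a11 led in controls, with 19964 ± 2067 (SD, n = 3), and S100a9 and S100a8 gave 14 ± 7.57 and 11.4 ± 2.37 (SD, n = 3), close to the 11.3 ± 2.86 (SD, n = 3) of S100a7a. By mean level per kb, S100a9 held place 12 and S100a8 place 21 of the 7091 listed genes in KA, against places 5792 and 5930 in controls. S100a11 held places 20 and 19.

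S100a8 and S100a9 also differed from the rest of the family in how much they varied among KA mice. From the lowest to the highest KA library the level changed 5.3-fold for S100a8 and 7.09-fold for S100a9. Among the other 7 genes this ratio lay between 1.26 for S100a11 and 2.17 for S100a7a. The SD of log2(normalised reads + 1) over the 4 KA libraries was 1.14 for S100a8 and 1.28 for S100a9, larger than in 99.4% and 99.8% of the 5725 listed genes with a mean of at least 50 normalised reads in KA, whose median was 0.22. KA 1 and KA 4 were high and KA 2 and KA 3 were low, so each sex held one high and one low library, and so did each run of animal numbers (4854 and 4855 for KA 2 and KA 1, 4876 and 4877 for KA 3 and KA 4).

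Over the 4 KA libraries S100a8 and S100a9 were both high in KA 1 and KA 4, lower in KA 2 and lowest in KA 3. With 4 libraries no correlation across samples is given, and likeness was measured as the root mean square difference between a pair of genes in log2(normalised reads + 1), each centred on its own mean over the KA libraries. The difference between S100a8 and S100a9 was 0.23, which made S100a9 the second nearest of 5724 genes to S100a8 and S100a8 the fourth nearest to S100a9. This measure depends strongly on how much a gene varies. A gene with the same value in all 4 libraries would lie 0.99 from S100a8 and 1.11 from S100a9, where the median gene also lay, and 37 of 5725 genes had an SD at least as large as that of S100a8 (itself included). A near place among all genes was therefore open mainly to the few that vary this much, and for genes that vary little, such as the other S100 genes, the distance says nothing on whether they follow the pair. All 7 other S100 genes were below their own KA mean in KA 4, and 6 had their lowest KA value there, while S100a8 had its highest value in that library. In KA 1 all 9 S100 genes were above their KA mean.

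The genes nearest to the pair were 6 others, and all of them were lowest in KA 3. Nearest to S100a8 was Crispld2, a secreted glycoprotein, with 606, 263, 147 and 918 normalised reads in KA 1 to KA 4 and 44.9 to 70.1 in controls. Has3, a hyaluronan synthase, gave 1011, 492, 169 and 870.0 in KA and 40.2 to 95.6 in controls, and was among the 5 nearest to both. Gsdmc3, of the gasdermin family of pore-forming proteins, gave 115, 47.3, 32.4 and 112 in KA and at most 2.84 in controls. Nearest to S100a9 was Gm5416, of the stefin A protease inhibitor family, with 481, 148, 57.4 and 385 in KA and 0 in the 3 controls. The small proline-rich envelope genes Sprr2b (274, 82.2, 40.7 and 157) and Sprr2h (667, 229.8, 91.9 and 379) followed, with 0 and at most 1.6 in controls. Gsdmc3, Gm5416, Sprr2b and Sprr2h have close paralogs beside them, so the division of their reads is uncertain. These 6 genes were picked for their likeness, in spread as well as in pattern, which is a description of 4 libraries.

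**Figure D3:**
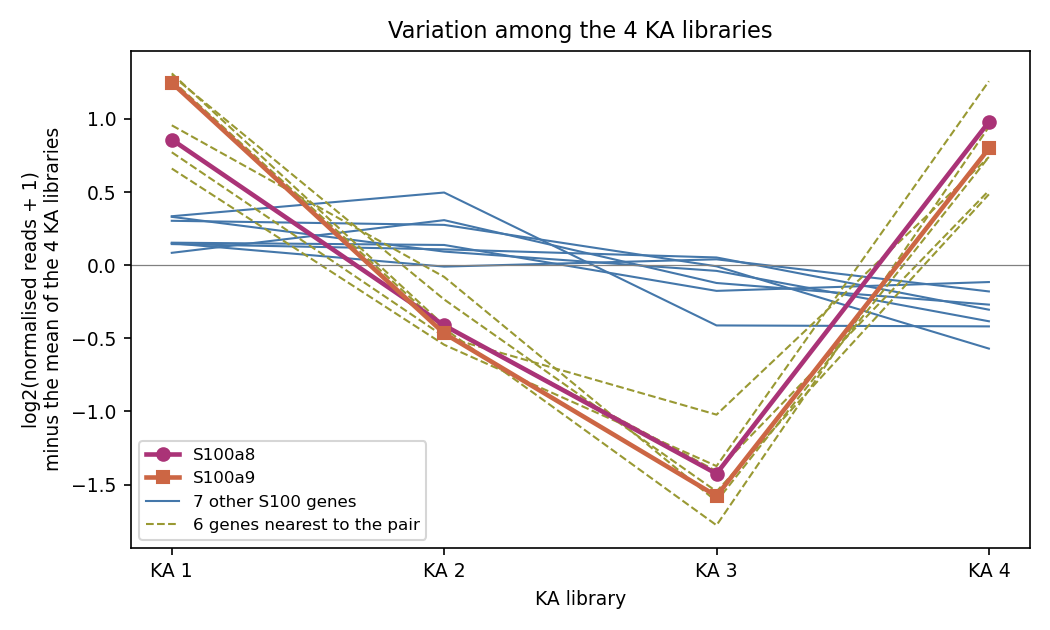
Log2(normalised reads + 1) of single genes in the 4 KA libraries, each minus its own mean over them (vertical axis); lines only join the values of 1 gene, since the libraries have no order. S100a8, S100a9 and the 6 genes nearest to them are high in KA 1 and KA 4 and lowest in KA 3, and the 7 other S100 genes are below their mean in KA 4.

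The split of reads between S100a8 and S100a9 was similar in the KA libraries but not identical. S100a8 made up 39% of the counts of both in KA 1 (25503 of S100a8 and 39901 of S100a9; exact 95% binomial interval 38.6% to 39.4%). It made up 46.5% in KA 2 (9280 and 10676 counts; 45.8% to 47.2%), 48.2% in KA 3 (4956 and 5328 counts; 47.2% to 49.2%) and 48.7% in KA 4 (26417 and 27833 counts; 48.3% to 49.1%). KA 1 had the lowest share, and its interval did not reach those of the other KA libraries. In controls the share was 76.9% (10 and 3 counts; 46.2% to 95%), 37.5% (6 and 10 counts; 15.2% to 64.6%) and 47.6% (10 and 11 counts; 25.7% to 70.2%). The control intervals are so wide that a shift of the size seen between KA libraries was not detectable at this depth. On the log2 scale, after adding 0.5 to each count, the S100a8 to S100a9 ratio averaged 0.25 ± 1.19 (SD, n = 3) in controls and -0.26 ± 0.26 (SD, n = 4) in KA. The difference of -0.51 did not pass a two-sided exact permutation test (p = 0.514; the smallest p that the 35 splits can give is 0.0286), and without control 1 it was 0.15. The intervals reflect counting error alone, and no molecular identifiers are stated by which copies of 1 molecule could be recognised.

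**Figure D4:**
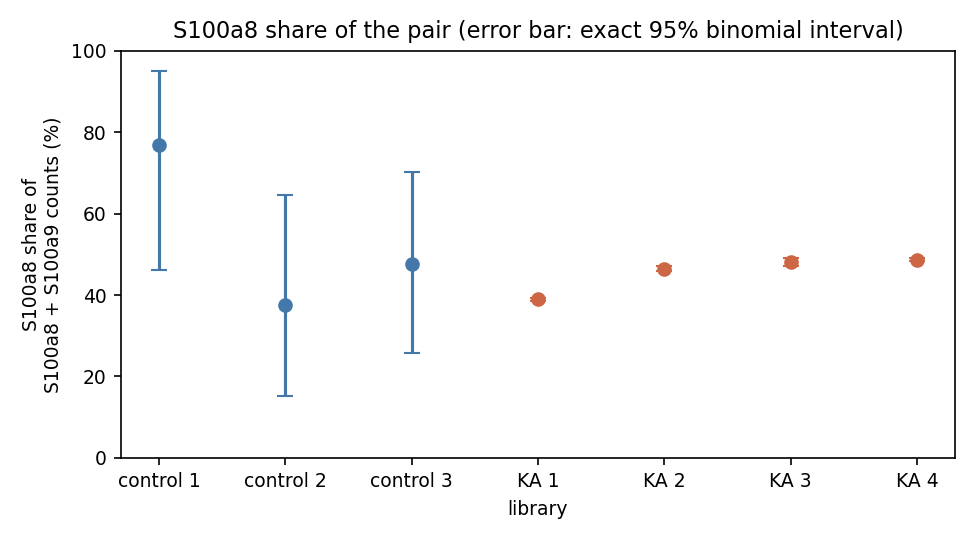
S100a8 as a percentage of S100a8 plus S100a9 counts in each library, with exact 95% binomial intervals. The KA values lie between 39% and 48.7% with narrow intervals, and the control values rest on 13 to 21 counts and have wide ones.

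The effect of genotype on S100 genes was also compared between the sexes, by a product term of genotype and sex, with 1 male among the controls. By the quasi-likelihood test of edgeR, 0 of the 9 genes passed at an adjusted 0.05 and 0 at an unadjusted 0.05. DESeq2 also gave 0 and 0. Over all 6761 genes, 0.0444% were called. For S100a8 the effect in males minus that in females was 0.53 on the log2 scale (SE 2.77), and for S100a9 it was -0.27 (SE 2.73), so the errors leave room for large differences. Among females alone 5 S100 genes passed as higher, since S100a6 (0.75, adjusted p = 0.0544), S100a11 (0.48, adjusted p = 0.0671) and S100a13 (0.42, adjusted p = 0.124) no longer did, while S100a8 (10.76) and S100a9 (11.36) did. Calls also became fewer over the whole table: 1802 of 6747 tested genes passed as higher among females alone, against 2976 of 6761 with all libraries. The adjusted p of S100a6 ran from 0.000129 to 0.0544 over its 19 alternatives and that of S100a11 from 0.00157 to 0.0671. Among the lower run of animal numbers alone (2 controls and 2 KA) 8 S100 genes passed as higher and 1 as lower. Of all 6766 genes tested there, 2742 passed as higher and 3137 as lower.

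Genes of the pathway around calprotectin were described from lists, whose counts stand against 44% of all tested genes passing as higher and 47.5% as lower. Of 15 genes for receptors and effectors of S100A8 and S100A9, 10 were in the table and 9 were tested, and all 9 passed as higher; the median log2 difference was 0.91 against 0.22 over all genes tested. Cd14, the co-receptor of TLR4, gave 12.4 to 28.9 normalised reads in controls and 47 to 103 in KA (log2 difference 1.83 ± 0.39, SE; adjusted p = 0.00186 by the quasi-likelihood test of edgeR). Ly96, the TLR4 partner MD-2, gave 55.3 to 66 in controls and 94.5 to 145 in KA (log2 difference 0.91 ± 0.22, SE; adjusted p = 0.00383 by the quasi-likelihood test of edgeR). Cyba, a subunit of the NADPH oxidase that calprotectin binds in phagocytes, rose from a control mean of 63.1 ± 22.6 (SD, n = 3) to 334 ± 101 (SD, n = 4). Cd36, a scavenger receptor also known from fat-storing cells, rose from a control mean of 45.2 ± 59.1 (SD, n = 3) to 417 ± 103 (SD, n = 4), with control 2 at 113 and the other controls below 13. Tlr4 and Ager, which encodes RAGE, were not analysed here.

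Of 25 genes listed as inducers of S100a8 and S100a9 (cytokines, cytokine receptors and transcription factors), 13 were in the table and 12 were tested. Of these 9 passed as higher and 1 as lower; the median log2 difference was 1.09, and it is the same with Il17a, Il17f and Il22 set at their bounds given below. Nfkbiz, the IκBζ co-activator of IL-17 responses, gave 1143 to 1721 normalised reads in controls and 3424 to 4935 in KA (log2 difference 1.498 ± 0.18, SE; adjusted p = 9.01e-05 by the quasi-likelihood test of edgeR). Cebpb, a transcription factor that acts on S100a8 and S100a9, gave 2624 to 3264 in controls. It gave 8898, 9263, 7455 and 5271 in KA 1 to KA 4 (log2 difference 1.21 ± 0.18, SE; adjusted p = 0.000268 by the quasi-likelihood test of edgeR). Stat3, the factor downstream of IL-6 and IL-22, rose from a control mean of 3794 ± 449 (SD, n = 3) to 7772 ± 1552 (SD, n = 4). It gave 8245, 6955, 6173 and 9717 in KA 1 to KA 4. Atf3, a stress-induced factor, fell from 5731 ± 1351 (SD, n = 3) to 2156 ± 587 (SD, n = 4). The interleukins were named after their values had been seen. Il17a had no count in any control and 165, 14, 6 and 19 in KA 1 to KA 4, at least 18.4-fold higher against a floor of 3 counts per control library, and at least 5.01-fold without KA 1. Il17f had 0, 0 and 2 counts in controls and 324, 48, 16 and 41 in KA, at least 39-fold higher, and at least 13.6-fold without KA 1. Il22 had none in controls and 68, 43, 4 and 16 in KA, at least 12.3-fold higher. All 3 were highest in KA 1 and lowest in KA 3, and in KA 4 they were far below KA 1. S100a8 was highest in KA 4 (27426 normalised reads, 25227 in KA 1), and S100a9 in KA 1 (39469, 28896 in KA 4). Both were lowest in KA 3. The part of any of these cytokines and factors in the S100a8 and S100a9 levels was not tested.

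Keratinocyte stress genes rose alongside. Of 10 genes 8 were in the table and 7 were tested, and all 7 passed as higher; the median log2 difference was 4.44, also with Defb3, whose controls had at most 3 counts, at its bound. Krt16, a keratin of wounded and hyperproliferative epidermis, gave 267 to 431 normalised reads in controls and 96091, 38396, 21201 and 41011 in KA 1 to KA 4. Krt6b gave at most 11.4 in controls and 26427, 7309, 2075 and 11461 in KA. Lcn2, an antimicrobial iron-siderophore binder, gave 4.73 to 19.6 in controls and 3680, 1765, 579 and 2401 in KA. Krt17, another keratin of activated keratinocytes, was already abundant in controls (33278 ± 3378, SD, n = 3) and stood at 100988 ± 29414 (SD, n = 4) in KA. Krt16, Krt6b and Lcn2 were highest in KA 1 and lowest in KA 3, the order seen for S100a9. The list was chosen with results of these libraries known and is no independent evidence of its direction.

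Of 10 partners of other S100 proteins 6 were in the table, and 2 passed as higher and 3 as lower, near the 44% and 47.5% over all genes tested. Their median log2 difference was -0.14 against 0.22 over all genes tested. Ahnak, the giant scaffold that binds S100A10, fell from 37309 ± 2423 (SD, n = 3) to 23147 ± 2446 (SD, n = 4) normalised reads. Anxa11, an annexin that binds S100A6, fell from 332 ± 38.5 (SD, n = 3) to 200.3 ± 45 (SD, n = 4). Anxa5 rose from a control mean of 2975 ± 482 (SD, n = 3) to 5131 ± 368 (SD, n = 4). Hltf, a chromatin remodeller, fell from 643 ± 56.9 (SD, n = 3) to 489 ± 32.9 (SD, n = 4). S100a10 was not analysed here.

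**Figure D5:**
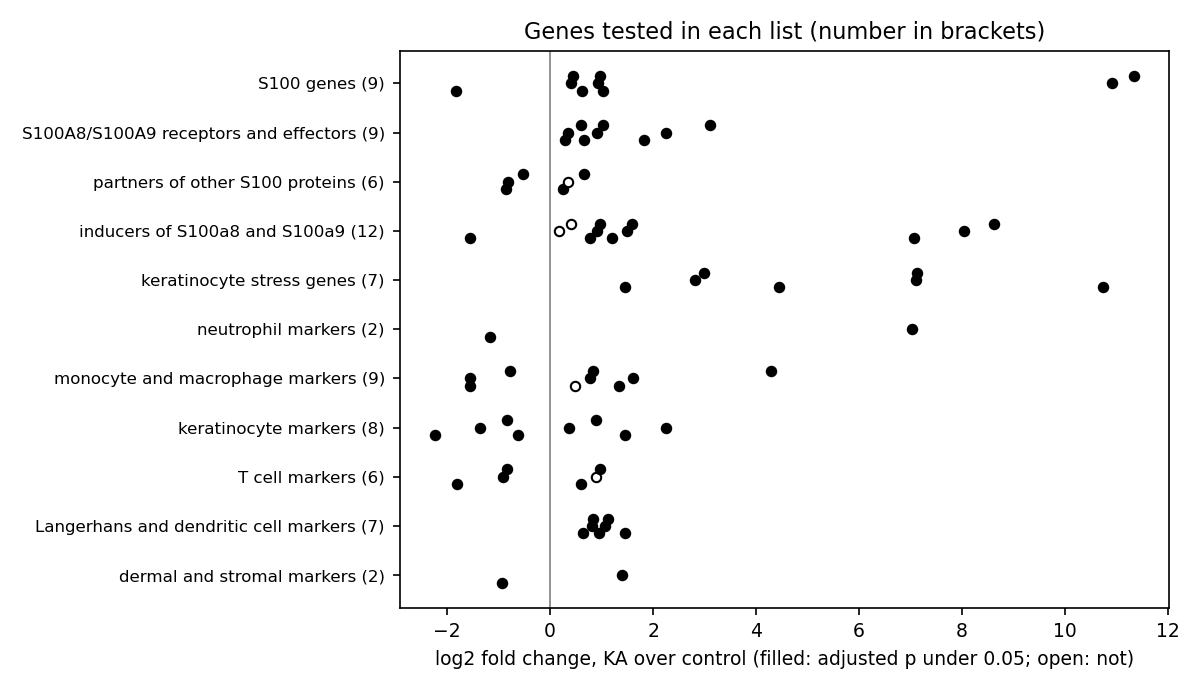
Log2 fold change (KA over control) of every tested gene of the S100 family and of each list; 1 point is 1 gene, filled where the adjusted p-value was under 0.05, with the number tested in brackets. S100a8 and S100a9 lie beyond 10, where the single other gene is Krt6b (10.74), and the remaining S100 genes lie between -1.83 and 1.02.

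Because white blood cells can carry calprotectin, markers of other cell types were examined in the same libraries. Of 20 neutrophil markers 2 were in the table, and the other 18, among them Ly6g, Csf3r and Mpo, were not analysed here. Cxcr2, a neutrophil chemokine receptor that other cells can also express, rose from 0, 1.03 and 4.01 normalised reads in the controls to 386, 219.7, 220.4 and 289 in KA (log2 difference 7.04 ± 0.51, SE; adjusted p = 6.72e-06 by the quasi-likelihood test of edgeR). Il1r2, a decoy receptor, fell from 2250 ± 356 (SD, n = 3) to 1091 ± 281 (SD, n = 4). Of 15 monocyte and macrophage markers 10 were in the table and 9 were tested: 5 passed as higher and 3 as lower, and the summed level was 2270 to 2840 in controls and 4980 to 6932 in KA. Ccr2 rose from a control mean of 6.24 ± 3.96 (SD, n = 3) to 140 ± 51.2 (SD, n = 4), and Adgre1, which encodes F4/80, fell from 164 ± 58.9 (SD, n = 3) to 61.1 ± 5.84 (SD, n = 4). Csf1r, the macrophage growth factor receptor, went from 650.2 ± 151 (SD, n = 3) to 1277 ± 157 (SD, n = 4). Lyz2, the lysozyme of neutrophils and macrophages, gave 26.5 to 37.9 normalised reads in controls and 111, 116, 43.9 and 159 in KA, and was named after its values had been seen. Cybb, the catalytic subunit of the phagocyte oxidase, had no count in controls and 7 to 20 in KA, and was likewise named afterwards. The part of these cells in the S100a8 and S100a9 levels was not tested.

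Keratinocyte markers were abundant in all libraries: 8 of 15 were in the table, and 4 passed as higher and 4 as lower, near the 44% and 47.5% over all genes tested. Their summed level was 622337 to 703783 normalised reads in controls and 1072135 to 1161126 in KA. That sum covers opposite changes. Krt15, named outside the rule given below, fell from 174948 ± 24167 (SD, n = 3) to 40040 ± 21878 (SD, n = 4). Krt14, the basal keratin whose promoter drives the recombinase, went from 116254 ± 16504 (SD, n = 3) to 348564 ± 43207 (SD, n = 4). Krt1, the keratin of the layers above, went from 58067 ± 14258 (SD, n = 3) to 304320 ± 52746 (SD, n = 4), while Dsg1a, a desmosomal cadherin, fell from 31350.1 ± 1449 (SD, n = 3) to 13324 ± 3856 (SD, n = 4). Of 8 markers of Langerhans and dendritic cells 7 were in the table and all 7 passed as higher (44% over all genes tested), with a median log2 difference of 0.95 against 0.22. Cd74, the invariant chain of antigen presentation, went from 12237 ± 1978 (SD, n = 3) to 28021 ± 4823 (SD, n = 4). Of 10 T cell markers 6 were in the table, 2 passed as higher and 3 as lower, near the shares over all genes tested. Trbc1, of the alpha beta T cell receptor, rose from a control mean of 157 ± 23 (SD, n = 3) to 337 ± 84.9 (SD, n = 4). Cd2, named outside the rule given below, rose as well. Cd3e fell from 277 ± 35.4 (SD, n = 3) to 171 ± 13.3 (SD, n = 4). Cd3g fell from 513 ± 126 (SD, n = 3) to 297 ± 34.8 (SD, n = 4). Trdc, of the gamma delta T cell receptor, fell from 444 ± 58.5 (SD, n = 3) to 138 ± 15.8 (SD, n = 4). Of 16 dermal and stromal markers 2 were in the table, and they went opposite ways. Pecam1, an endothelial marker that some white blood cells share, rose from a control mean of 14.5 ± 3.14 (SD, n = 3) to 42.5 ± 9.02 (SD, n = 4), with no overlap. Dct, a melanocyte enzyme, fell from 157 ± 51.9 (SD, n = 3) to 90.4 ± 28.6 (SD, n = 4), with overlapping libraries, and it made up most of the summed level of 114 to 223 in controls and 92.4 to 158 in KA. Reads in the listed genes, which are not whole libraries, came to 9590718 to 12761458 in controls and 10076911 to 12186567 in KA, and the pair took 0.096% (KA 3) to 0.537% (KA 1) of them in KA.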

How the data were processed

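RNA was sequenced in bulk from 7 epidermis samples. Fastp, STAR 2.6.1d, featureCounts 1.5.0-p3, DESeq2 1.40.2 and the mm10 build are named in the submitters' processing notes, without roles; strand setting and annotation are not given in the sources used here. The deposited table holds raw counts per gene and a normalised signal, which the authors obtained by dividing counts by 1 size factor per library (0.888 to 1.25). Per the file headers it also holds log2 fold changes, a test score and p-values from the authors, and it lists only genes whose adjusted p-value is below 0.05. The columns held no sample of another series (0 columns).

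The deposited counts went into edgeR 4.0.16 (R 4.3.3): filterByExpr by group (6761 genes kept, 330 left out), TMM factors, robust dispersions, glmQLFit and glmQLFTest, with Benjamini-Hochberg adjustment across the tested genes and calls below 0.05. Each SE was obtained by dividing the log2 difference by the root of its F statistic. The common dispersion corresponds to a coefficient of variation of 0.193. Levels per kb use the authors' gene length, and log2 levels use a pseudocount of 1. The labels name no litter or batch. Lists were described by counts and medians. The S100 genes, the lists and the patterns were chosen with earlier results of these data known. The genes named were all S100 rows, up to 4 per list with the smallest adjusted p-value, and the 5 nearest in the KA libraries to S100a8 and to S100a9; others are marked where they appear. One gene that this rule names is not reported here. The code was tested on simulated data. Sequences came from RefSeq (GRCm38.p6). Protein sequences were not used here. Alternatives were RLE and the authors' size factors, DESeq2 1.42.0, limma-voom (limma 3.58.1), no filter, a minimum mean count of 10, sex as a covariate, blocks, adjustment over 19407 genes, subsets and each library left out.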

Additional observations from a re-analysis of the deposited data

Results flagged for a closer look

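Of 51 genes named from the S100 family, the lists and the likeness search, 1 had a KA library far from the others of its group by Dixon's ratio, the gap to the nearest library over the whole range (limit 0.829); chance gives about 1 in 20, or 2.55 of 51. This was Itgax, the CD11c integrin of dendritic cells and macrophages, with a ratio of 0.919. KA 3 held 367 normalised reads of Itgax against 462, 464 and 470.3 in KA 1, KA 2 and KA 4, and 145 to 216 in controls. KA 3 was also the library with the least S100a8 and S100a9. No S100 gene had such a library.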

How the results depend on the processing

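Each of the 9 S100 genes kept its direction in every alternative that gave it a value, 19 for each gene except S100a7a with 18. The log2 fold change ran from 10.40 to 11.21 for S100a8 and from 10.81 to 11.78 for S100a9, and both passed the threshold each time. With the authors' size factors the median gene shifted by 0.13 on the log2 scale, and with RLE factors by -0.04; against this, S100a13 stood at 0.41 and S100a11 at 0.44. The authors' factors put 52.5% of the passing genes higher, against 48.1% here. The number of S100 genes passing as higher was 5 among females alone and 7 to 8 with single libraries left out. The number passing as lower was 0 with a mean of at least 10 counts, because S100a7a was then not tested. Genes of the 4 pathway lists and of the neutrophil and monocyte lists passing as higher numbered 33, and 20 among females alone; leaving out single libraries gave 27 to 34. Over all genes tested, 2976 of 6761 passed as higher with all libraries, and 1802 of 6747 among females alone. With single libraries left out, 2591 to 2935 of all genes tested passed as higher. The S100a8 to S100a9 log2 ratio, KA minus control, ran from -0.98 to 0.15 with single libraries left out, and it changed sign without control 1.

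With the replicate block by sample number, which leaves out KA 4, 7 S100 genes passed as higher and 1 as lower, and S100a8 and S100a9 stood at 10.40 and 10.81. S100a13 was lost (adjusted p = 0.0549, over alternatives 0.0135 to 0.124). Same-numbered samples did not deviate together (correlations of -0.19, 0.13 and -0.10 across genes), so the numbers were not taken as pairs. The paired difference of the log2 ratio was -0.57 (exact sign-flip p = 1), but so few pairs could not have passed that test at 0.05. The interaction was not run without control 2, the single male control, nor with the replicate block. Control counts of 3 to 11 reads limit the folds of S100a8 and S100a9. The bounds for Il17a, Il17f and Il22 with each KA library left out, chosen after seeing the data, ran from 5.01 to 23.8, from 13.6 to 50.02 and from 8.3 to 15.9, each lowest without KA 1.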
